A study of Neogale vison with 6 samples.

Results

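The genes of the TGF-β pathway examined here are the ligands TGFB1 and TGFB2, the receptors TGFBR1, TGFBR2 and TGFBR3, and the signal carriers SMAD2, SMAD3, SMAD4 and SMAD7. They were chosen by gene symbol. Each of the 9 symbols matched 1 row of the deposited count table, which lists 24526 genes, and all 9 had enough reads to be tested. The cells were Mv1Lu, an epithelial line from mink lung that is widely used because it responds strongly to TGF-β. RNA-seq compared 3 control libraries, from cells left untreated, with 3 libraries from cells after cholesterol depletion (CD). For CD the cells received 50 μM lovastatin, a statin that blocks HMG-CoA reductase, together with 50 μM mevalonate, the product of that enzyme, in medium with 10% lipoprotein-deficient serum for 16 h. The statin, the mevalonate and the serum changed together, so their shares cannot be told apart, and no library received TGF-β according to the labels.

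TGF-β ligands are secreted in a latent form, held by binding proteins in the matrix until they are released. The active ligand binds the type II receptor (TGFBR2), often presented by the co-receptor betaglycan (TGFBR3), and the type II receptor then phosphorylates the type I receptor (TGFBR1). The type I receptor phosphorylates SMAD2 and SMAD3, which join SMAD4 and enter the nucleus, where they drive targets that include SMAD7, an inhibitor that acts back on the receptors. In epithelial cells such as Mv1Lu the pathway is known for growth arrest.

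In CD, 5 of the 9 genes were higher than in control and 0 were lower at an FDR under 0.05 (Benjamini-Hochberg, quasi-likelihood test of edgeR over 12148 genes). The same test called 24.8% of all tested genes higher and 22.9% lower, 47.7% in all. The higher genes were TGFBR3, SMAD2, SMAD3, SMAD4 and TGFB1, and the genes not called were TGFB2, TGFBR1, TGFBR2 and SMAD7. Counts of lower members were also 0 with DESeq2 and with limma-voom, and with all 6 libraries and condition as the only term none of the 9 genes had a negative log2 fold change in edgeR. Leaving out CD replicate 1 made those of TGFBR1 and TGFBR2 negative, as given below. The 9 genes had log2 fold changes with a median of 0.58, against 0.057 over all tested genes. In these 5 genes the lowest CD value exceeded the highest control value, an arrangement found for 29.5% of the tested genes, and the opposite arrangement, found for 28.6%, occurred in 0 of the 9. Exact permutation of 6 libraries allows no p under 0.1 for a single gene, so the calls rest on the spread that edgeR estimates across genes.

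The libraries held between 13473820 and 18633764 reads counted on genes. Along the second principal component, which held 12.3% of the variance, CD replicates 1 and 3 lay at opposite ends (-30.8 and 37.2). CD replicate 2 was at -7.58, and the control libraries lay between -3.29 and 4.08. CD libraries varied more than control libraries (biological coefficient of variation 0.213 against 0.0852). Of the 9 genes, 7 were lower in CD replicate 3 than the mean of the other CD libraries. The median of this log2 difference was -0.29 for the 9 genes and -0.0013 over all tested genes, whose quartiles were -0.37 and 0.29. Values without CD replicate 3, and for some genes without CD replicate 1, are given where they matter. Reads on no gene made up 29.3 to 47.2% of the libraries. They were 47.2% in control replicate 1, 41.4% in control replicate 2 and 41.4% in CD replicate 3. Their part in the results was not tested. Of 9 epithelial markers found in the table, KRT7 and KRT19 were abundant, while EPCAM had 9 and CDH1 26 reads in all 6 libraries together, and the summed level of the list was 7933 to 8582 CPM in control and 1689 to 2085 CPM in CD. This sum followed KRT7 and KRT19, which fell (log2 fold changes -2.50 and -1.03), while CLDN4 and DSP rose (3.55 and 1.46) and OCLN and TJP1 were not called. Among 7 lung alveolar markers SFTPB, SFTPC and AQP5 had 0 reads, and the sum was 65.6 to 85.0 CPM in control and 90.5 to 136 CPM in CD. This sum was mostly ABCA3, which rose (log2 fold change 0.70), while AGER was not called (-0.28). NKX2-1 had 23 reads in control and 9 in CD, SFTPD had 2 and 6, and neither was tested. Of 7 leukocyte markers 3 were tested and rose (CD68, CSF1R and CD14), with a summed level of 5.64 to 6.89 CPM in control and 21.8 to 26.9 CPM in CD, while LYZ and CD79A had 0 reads and PTPRC had 1. The 9 fibroblast markers summed to 309.9 to 387 CPM in control and 183 to 233 CPM in CD with THY1 at 0 reads. Of these, COL1A1, COL1A2, COL3A1 and PDGFRB fell and PDGFRA was not called. LUM had 7 reads in control and 35 in CD, DCN had 3 and 15, POSTN had 0 and 6, and none of them was tested. The 6 endothelial markers summed to 209 to 224 CPM in control and 76.4 to 126 CPM in CD, mostly from TEK, with CDH5 at 1 read. Of the endothelial markers TEK and TIE1 fell, VWF rose from 5 reads in control to 56 in CD, and the 11 reads of PECAM1 were all in CD. The part of these markers in the results below was not tested, and in bulk RNA a change in the number of cells of a type and a change in RNA per cell cannot be told apart.

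**Figure D1:**
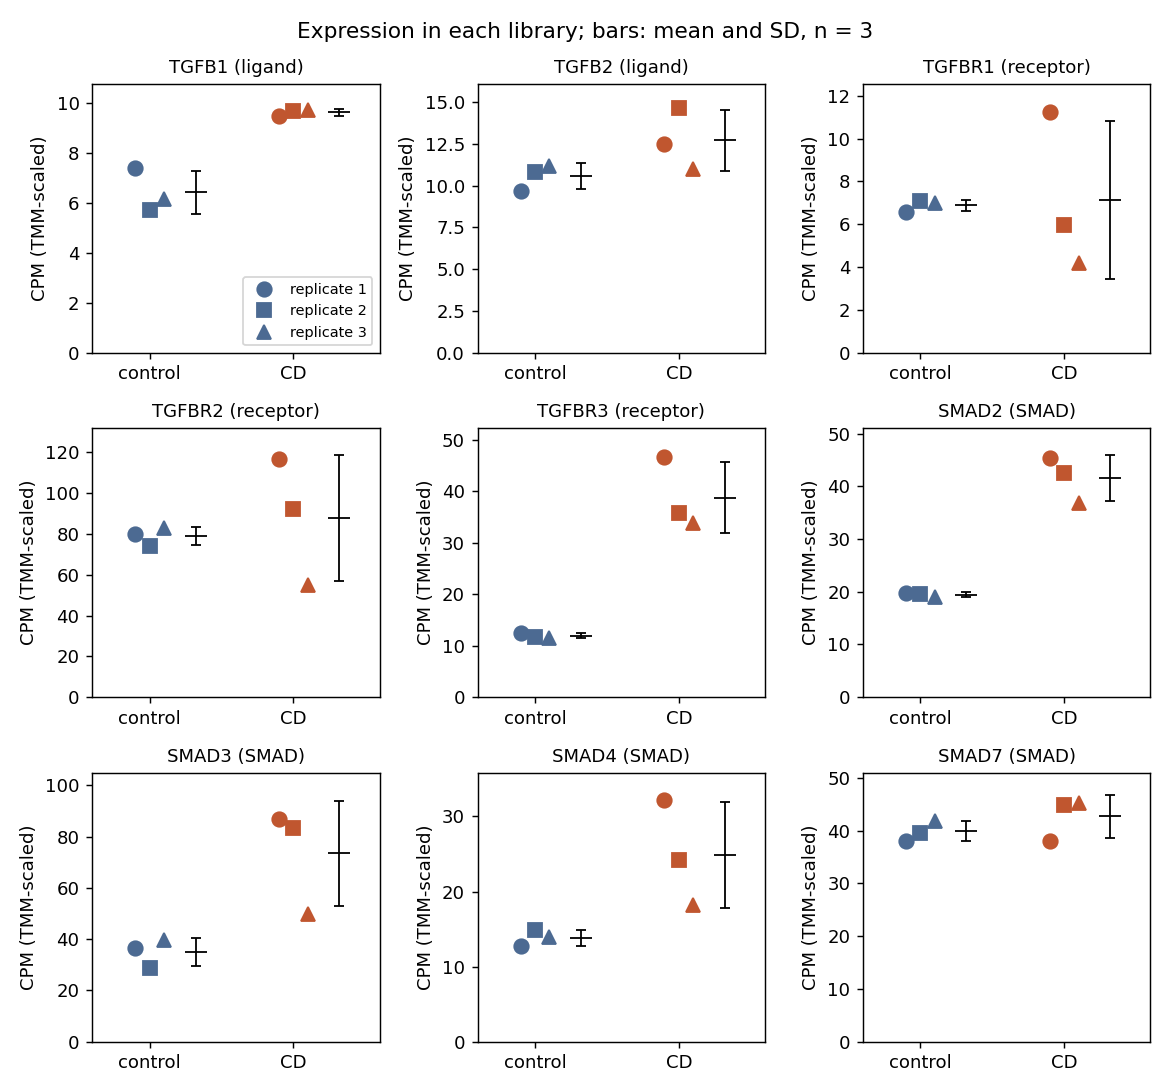
Expression of each of the 9 genes in the 6 libraries, in CPM after TMM scaling on a linear axis from 0, with control in blue and CD in orange. Symbols mark the replicate number and the bars give mean ± SD of 3 libraries; TGFBR3 and SMAD2 show the clearest gap, and the CD libraries of TGFBR1 lie from 4.18 to 11.2 CPM around the control values.

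Expression is given below as CPM, the reads of a gene relative to all reads of the library on genes, after TMM scaling for differences in composition. These levels are not corrected for gene length and are compared only within a gene.

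The first step examined was the supply of ligand. TGFB1, the most widely studied isoform, was at 7.38, 5.71 and 6.17 CPM in control replicates 1, 2 and 3 and at 9.46, 9.69 and 9.72 CPM in CD replicates 1, 2 and 3. All CD libraries exceeded all control libraries, and the SD was 0.142 CPM in CD and 0.862 CPM in control (n = 3 each). The coefficient of variation in CD was 1.48%, below the 8.19% that counting error alone would give, so this closeness was not read as a trait of TGFB1. In control it was 13.4%, with about 10.1% from counting error. The log2 fold change of TGFB1 was 0.58 (standard error 0.18, FDR 0.0207, edgeR), or 1.50-fold with a 95% interval of 1.14 to 1.97. This was the weakest of the 5 calls. It was lost without control replicate 2 (FDR 0.0932), without control replicate 3 (FDR 0.0861) and without CD replicate 2 (FDR 0.0679, edgeR), when the log2 fold change was 0.50 to 0.55.

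TGFB2, the isoform that depends most on betaglycan for binding to the type II receptor, was at 9.67, 10.8 and 11.2 CPM in control and at 12.5, 14.7 and 11.0 CPM in CD. CD replicate 3 fell inside the control range, and the groups overlapped. For TGFB2 the log2 fold change was 0.27 with a 95% interval of -0.12 to 0.66 (FDR 0.233, edgeR), or 0.918-fold to 1.58-fold. The ratio of TGFB1 to TGFB2 reads within a library, which needs no scaling between libraries, was 1.26 times higher in CD, with overlapping groups (exact permutation test, two-sided p = 0.3). Hence the call for TGFB1 and its absence for TGFB2 were not shown to differ.

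The receptors came next. TGFBR3 encodes betaglycan, a proteoglycan that binds all TGF-β isoforms and hands them to TGFBR2. It was at 12.5, 11.6 and 11.6 CPM in control and at 46.6, 35.8 and 33.8 CPM in CD, so that the lowest CD library was well above the highest control library. TGFBR3 rose by 1.70 on the log2 scale (standard error 0.16, FDR 2.50e-05, edgeR), or 3.26-fold with a 95% interval of 2.53 to 4.20. It was the only one of the 9 genes whose interval lay wholly above 2-fold, and it was called in all 14 alternative settings, with log2 fold changes of 1.56 to 1.76.

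TGFBR2, the type II receptor kinase, was at 79.8, 74.2 and 83.0 CPM in control. In CD it was at 116 and 92.1 CPM in replicates 1 and 2, above every control library, and at 55.0 CPM in replicate 3, below every control library. With all libraries, TGFBR2 had a log2 fold change of 0.15 with a 95% interval of -0.35 to 0.66 (FDR 0.600, edgeR). Without CD replicate 3 it was 0.36 and was called (FDR 0.00459, edgeR), and without CD replicate 1 it was -0.092 (FDR 0.708, edgeR), so the direction of TGFBR2 depended on which CD library was kept.

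TGFBR1, the type I receptor kinase that phosphorylates SMAD2 and SMAD3, was at 6.59, 7.08 and 7.00 CPM in control and at 11.2, 5.95 and 4.18 CPM in CD. CD replicate 1 lay above and replicates 2 and 3 lay below all control libraries. The coefficient of variation of TGFBR1 in CD was 51.6%, while counting error at its depth of 58 to 183 reads per CD library would give about 9.42%. In control it was 3.81%, below the 9.73% that counting error would give there, so the control spread is likely understated. TGFBR1 had a log2 fold change of 0.054 with a 95% interval of -0.65 to 0.76 (FDR 0.901, edgeR), the widest interval of the 9 genes. It ranged from -0.43 without CD replicate 1 to 0.28 without CD replicate 3, and neither was called.

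Within a library the receptor reads could be set against each other without scaling. The log2 ratio of TGFBR3 to TGFBR2 reads was -2.68, -2.67 and -2.84 in control and -1.32, -1.36 and -0.70 in CD. All CD libraries exceeded all control libraries, and the ratio rose 3.03-fold on average (two-sided exact permutation p = 0.1, which no 3 libraries against 3 can go below, and 0.3 after Benjamini-Hochberg adjustment over 6 pairs). The high value of CD replicate 3 in this ratio went with its low TGFBR2 level, and without this library the log2 difference was 1.39 instead of 1.60. The ratio of TGFBR1 to TGFBR2 had overlapping groups, with a log2 difference of -0.16 (exact permutation test, two-sided p = 0.5). In CD replicate 3 both kinase receptors were low together, TGFBR1 by 0.95 and TGFBR2 by 0.91 on the log2 scale below the mean of CD replicates 1 and 2, and only 5.99% and 6.74% of all tested genes lay lower in this comparison.

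**Figure D2:**
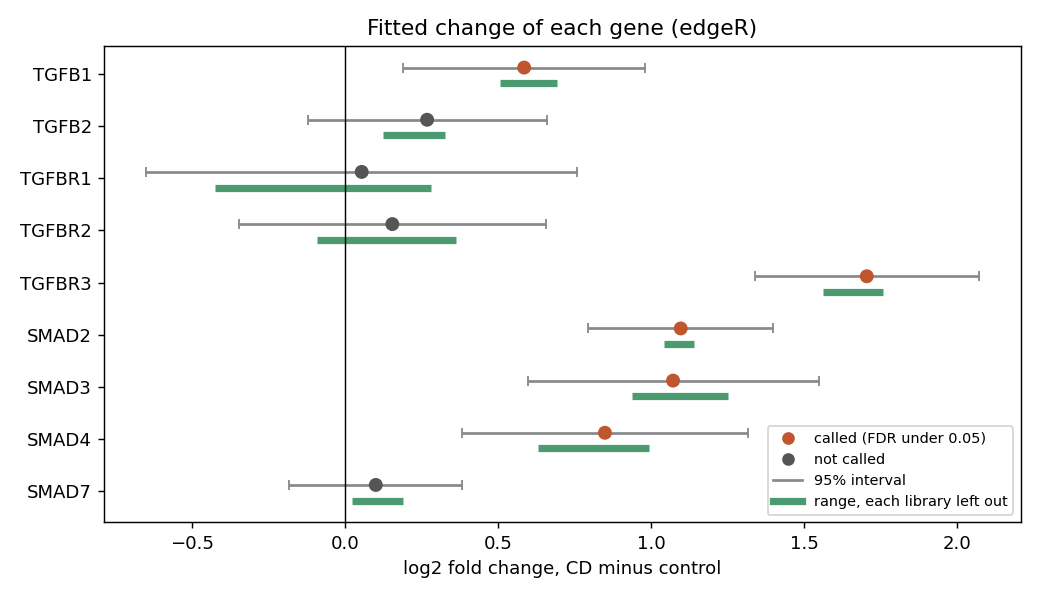
Log2 fold change of CD against control for each gene (points; orange, called at an FDR under 0.05; grey, not called) with its 95% interval from edgeR (grey line) and the range over fits that each leave out 1 library (green bar). TGFBR3, SMAD2, SMAD3, SMAD4 and TGFB1 have intervals above 0, and the green bars of TGFBR1 and TGFBR2 span 0.

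The mRNAs of SMAD2, SMAD3 and SMAD4, whose proteins carry the signal, were all higher in CD. SMAD2, phosphorylated directly by the type I receptor, was at 19.8, 19.5 and 19.0 CPM in control and at 45.4, 42.5 and 36.9 CPM in CD. Its SD in control was 0.422 CPM, a coefficient of variation of 2.17%, which is below the 5.80% that counting error would give. All CD libraries lay far above the control libraries. SMAD2 rose by 1.10 on the log2 scale (standard error 0.14, FDR 1.26e-04, edgeR), or 2.14-fold with a 95% interval of 1.73 to 2.64. It was called in all 14 alternative settings and stayed between 1.04 and 1.14 with each library left out.

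SMAD3, the other substrate of the type I receptor and the one that binds DNA by itself, was at 36.5, 28.8 and 39.5 CPM in control and at 87.0, 83.5 and 49.8 CPM in CD. All CD libraries exceeded the control libraries, although CD replicate 3 lay much nearer to them than the others. The log2 fold change of SMAD3 was 1.07 (standard error 0.21, FDR 0.00232, edgeR), or 2.10-fold with a 95% interval of 1.51 to 2.92. Without CD replicate 3 it was 1.25, and the call held in all 14 alternative settings, with an FDR of at most 0.0167 (edgeR, DESeq2 and limma-voom).

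SMAD4, the common partner of the receptor-activated SMADs, was at 12.7, 14.9 and 13.9 CPM in control and at 32.2, 24.2 and 18.2 CPM in CD. The groups did not overlap, and the CD libraries differed among themselves by more than those of control, with an SD of 7.05 against 1.11 CPM (n = 3 each). For SMAD4 the log2 fold change was 0.85 (standard error 0.21, FDR 0.00766, edgeR) and its 95% interval 0.38 to 1.32, or 1.80-fold. It was called in all 14 alternative settings, with log2 fold changes between 0.63 and 0.99.

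SMAD7, the inhibitory SMAD that brings ubiquitin ligases to the receptors and is itself induced by TGF-β, was at 38.0, 39.6 and 41.8 CPM in control and at 38.0, 44.9 and 45.2 CPM in CD. The lowest CD library was at the level of the lowest control library, and the other CD libraries were slightly above the control range. SMAD7 had a log2 fold change of 0.10 with a 95% interval of -0.18 to 0.38 (FDR 0.543, edgeR), the narrowest interval among the 4 genes not called. It was called in none of the 14 alternative settings.

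The balance among the SMADs was compared within libraries. The log2 ratio of SMAD7 to SMAD3 reads was 0.061, 0.46 and 0.082 in control and -1.19, -0.89 and -0.14 in CD. Every CD library was below every control library, and the ratio in CD was on average 0.520 times that of control (two-sided exact permutation p = 0.1, and 0.3 after adjustment over the 6 pairs). CD replicate 3 was close to the control range, and without it the log2 difference was -1.24 instead of -0.94. SMAD2 and SMAD3 moved by similar amounts, with a log2 difference of their ratio of -0.049 and overlapping groups (exact permutation test, two-sided p = 0.7), and this value lay between -0.18 and 0.12 with each library left out. The ratio of SMAD4 to SMAD3 differed by -0.23 on the log2 scale, again with overlapping groups (exact permutation test, two-sided p = 0.6).

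**Figure D3:**
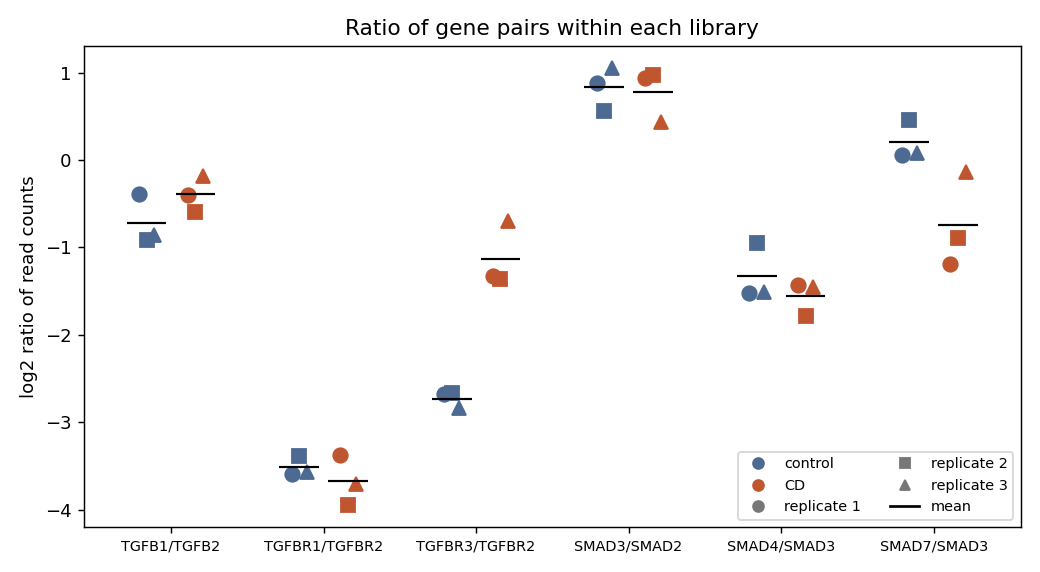
Log2 ratio of the read counts of 2 genes within each library (pseudocount 0.5) for 6 pairs, with control in blue, CD in orange, symbols for replicates and a line at the mean of 3 libraries. TGFBR3/TGFBR2 is higher in every CD library than in every control library and SMAD7/SMAD3 is lower, while the other 4 pairs overlap.

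The pathway around these genes was followed with lists of 101 further gene symbols, of which the table held 93 and the filter left 78. By edgeR (FDR under 0.05), 25 of the 78 (32.1%) were higher and 14 (17.9%) lower in CD, around a median of 0.19 on the log2 scale, and 39 were not called. Over all tested genes these shares were 24.8% and 22.9%. Of the 39 called genes, 30 were also called with each library left out.

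Among genes of other ligands, latency and activation, 3 of 13 tested (23.1%) were higher and 1 (7.69%) lower, beside 24.8% and 22.9% of all tested genes. TGFB3, the remaining TGF-β isoform, averaged 48.3 ± 6.16 CPM in control libraries and 46.8 ± 0.611 CPM after CD (SD, n = 3 each). It was not called (log2 fold change -0.046, FDR 0.792, edgeR). INHBA, the subunit of activin A, a ligand that also signals through SMAD2 and SMAD3, rose from 11.8 ± 1.01 to 52.7 ± 11.1 CPM, by 2.15 on the log2 scale (standard error 0.18, FDR 9.41e-06, edgeR). LTBP3 and LTBP4, which bind latent TGF-β, rose by log2 fold changes of 0.68 and 0.96. FURIN, the protease that cleaves the TGF-β precursor, fell from 1119 ± 126 to 439 ± 52.8 CPM, a log2 change of -1.35 (standard error 0.14, FDR 4.00e-05, edgeR). Without CD replicate 3, 7 genes of this list were called higher, and over all genes the number of higher calls went from 3016 of 12148 to 3616 of 12330.

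Of 7 other receptors and co-receptors tested, 1 was higher and 1 lower (14.3% each), against 24.8% and 22.9% over all tested genes. Without CD replicate 1, 3 genes of this list were called lower, and over all genes 2883 of 12254 were. CD109, a membrane protein that binds TGF-β and restrains its signaling, rose by a log2 fold change of 2.01, and NRP1, a co-receptor of several ligands that can bind TGF-β, fell (log2 fold change -1.16). The activin type I receptor ACVR1B, which like TGFBR1 phosphorylates SMAD2 and SMAD3, had a log2 fold change of -0.48 and was not called (FDR 0.0657, edgeR). ACVRL1 and TDGF1 had 0 reads in all libraries.

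Among 25 tested regulators of receptors and SMADs, 7 (28%) were higher and 3 (12%) lower, beside 24.8% and 22.9% of all tested genes. The 3 highest were TGIF1, a repressor that binds SMAD2 and SMAD3 (log2 fold change 1.17), PPM1A, a phosphatase of SMAD2 and SMAD3 (1.13), and the ubiquitin ligase WWP1 (0.93). The remaining higher genes, SMURF2, ITCH, SMURF1 and NEDD4L, which were singled out after their values were seen, are ubiquitin ligases of the same family as WWP1, known to act on SMADs and receptors. Their log2 fold changes lay between 0.69 and 0.82 (FDR of at most 0.0212, edgeR). Of these 5 ligases, only ITCH was called with each library left out. Among these 6 fits SMURF1, whose groups overlapped, was called only in the one without CD replicate 3. The ubiquitin ligases TRIM33, RNF111 and STUB1 of the same list were not called (log2 fold changes 0.22, 0.17 and -0.068). Without control replicate 3, 3 genes of this list were called higher, and over all genes 2216 of 12297 were. The lower genes were DAB2, an endocytic adaptor that binds TGF-β receptors (log2 fold change -2.49), the deubiquitinase USP4 (-0.64) and SMAD6, the other inhibitory SMAD (-0.48). SMAD6 averaged 179.6 ± 36.6 CPM in control libraries and 129 ± 21.8 CPM after CD (SD, n = 3 each; FDR 0.0413, edgeR). It was called in only 1 of the 6 fits that left out a library, the one without CD replicate 3 (log2 fold change -0.63). It was also not called with upper-quartile scaling (FDR 0.0592, edgeR).

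Of 13 tested factors that work with SMADs on DNA, 4 (30.8%) were higher and 2 (15.4%) lower, where all tested genes gave 24.8% and 22.9%. The higher ones were ATF3, JUN, JUND and NCOA1. JUN, which binds SMAD3 at AP-1 sites, rose from 37.4 ± 2.50 to 396 ± 47.3 CPM, by 3.41 on the log2 scale (standard error 0.14, FDR 1.56e-07, edgeR), and ATF3, a stress-induced partner of SMAD3, from 46.3 ± 2.56 to 585 ± 29.7 CPM (log2 fold change 3.66). JUND (1.72) was not called without CD replicate 3 (FDR 0.0669, edgeR), while 7 factors of the list were called higher without this library, a fit that also called more of all genes higher, as given above. The lower ones were FOXH1, the partner of SMAD2 in activin responses (-1.13), and MECOM, a repressor that binds SMAD3 (-1.26), which lost its call without control replicate 1, control replicate 3 or CD replicate 1 (FDR up to 0.119, edgeR) and with DESeq2 (FDR 0.0565).

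Genes known as targets of TGF-β were called in both directions. Of 26 tested, 11 (42.3%) were higher and 7 (26.9%) lower, compared with 24.8% and 22.9% of all tested genes, and their median log2 fold change was 0.18. The higher targets included MMP2 (4.47, from 7 reads in all control libraries to 165 in CD), PDGFB (3.07), TSC22D1 (2.41), PLAUR (1.59), the CDK inhibitor CDKN2B (1.36), TGIF1, BHLHE40 (0.92), COL4A1 (0.64), JUNB (0.56) and the CDK inhibitor CDKN1A (0.44). COL4A1 was called although its groups overlapped, and it was not called without control replicate 1, control replicate 2 or CD replicate 2 (FDR up to 0.0976, edgeR).

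The lower targets included ANGPTL4 (log2 fold change -5.07), TAGLN, an actin-binding protein (-2.69), IGFBP3, which binds insulin-like growth factors (-1.72), CCN2, a matrix protein (-1.40), TNS1 (-1.01), COL1A1 (-0.93) and SNAI1, a repressor of epithelial genes (-0.79). SNAI1 was not called without control replicate 2, control replicate 3 or CD replicate 2 (FDR up to 0.112, edgeR), and with DESeq2 its FDR was 0.106. Besides SMAD7, which is also on this list, the feedback genes PMEPA1 and SKIL were not called, with log2 fold changes of -0.089 (FDR 0.646) and 0.25 (FDR 0.585, edgeR). CCN2, a textbook target of SMAD3, was at 5.37, 4.84 and 4.85 CPM in control and at 2.15, 1.78 and 1.73 CPM in CD, below control in each CD library.

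**Figure D4:**
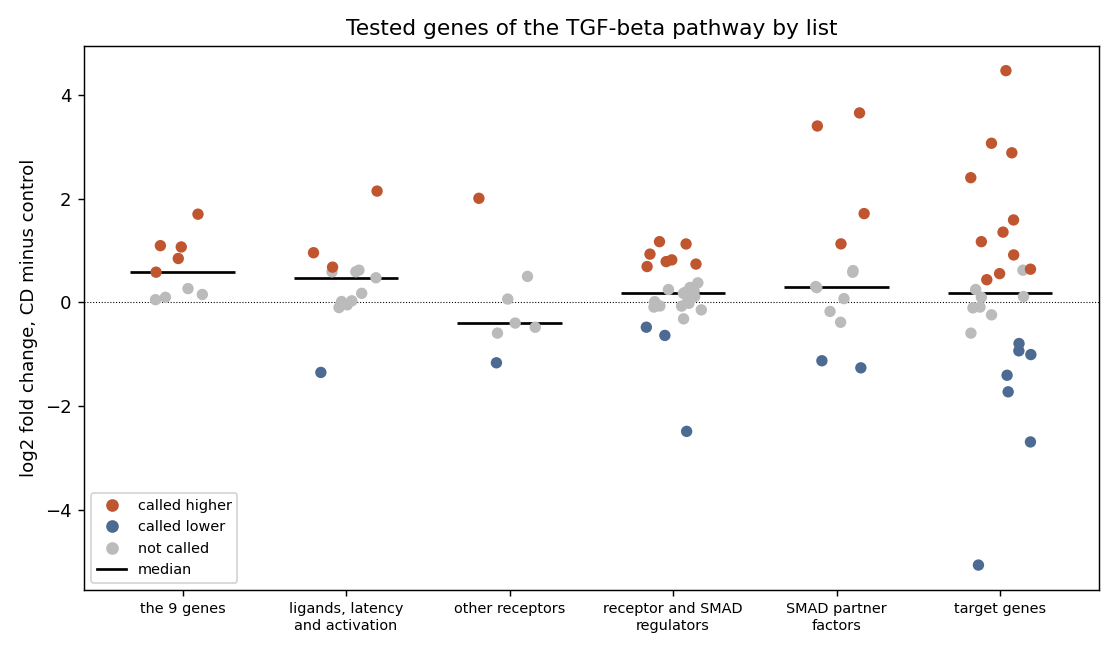
Log2 fold change of CD against control for every tested gene of the 9 genes and of 5 lists around them (orange, called higher; blue, called lower; grey, not called at an FDR under 0.05 in edgeR), with a line at the median of each list. The 9 genes hold no blue point, whereas the target genes spread from -5.07 (ANGPTL4) to 4.47 (MMP2).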

How the data were processed

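The authors deposited raw counts of reads per gene for the 6 libraries. According to their methods, poly(A) RNA was made into Nextera XT libraries, and reads were processed with fastp 0.20.1 and STAR 2.7.2a on the mink assembly NNQGG.v01. The sources used here do not name the counting program or its strand setting, so overlapping and antisense genes are uncertain. The authors' files of normalized expression were not used. Nothing in the labels says that the libraries came from separate cultures, so p-values measure the spread between these libraries. Rows of unmapped, multimapped, unassigned and ambiguous reads were left out of library sizes and tests.

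Counts were filtered by filterByExpr (minimum count 10, minimum total count 15), scaled by TMM and tested with glmQLFit (robust) and glmQLFTest of edgeR 4.0.16 in R 4.3.3, with condition as the only term, a Benjamini-Hochberg adjustment over all tested genes and a threshold of 0.05. Standard errors were derived from the F statistic. Ratios of gene pairs used a pseudocount of 0.5 and exact permutation tests. The fit was tested on simulated data. Alternatives were DESeq2 1.42.0, limma-voom (limma 3.58.1), 3 other scalings, 2 other filters, a replicate block, an FDR of 0.01 for counts of calls, and each library left out.

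The members and lists were chosen with earlier results of these data known. Named are the 9 genes, the 3 highest and 3 lowest called genes of each list, the called targets (1 is not reported here), and, for the gene with the lowest FDR, the 3 genes most like it; TGFB3, ACVR1B, PMEPA1, SKIL and the remaining ubiquitin ligases were named outside this rule, after their values were seen. Of the listed symbols, LEFTY1, LEFTY2, NRROS, FSTL3, FKBP1A, LDLRAD4, FOXO3, KRT8, KRT18, SFTPA1, EMCN and CD3E matched no row of the table, and CTGF is listed there as CCN2.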

Additional observations from a re-analysis of the deposited data

How the results depend on the processing

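TGFBR3, SMAD2, SMAD3 and SMAD4 were called higher, and TGFB2, TGFBR1 and SMAD7 were not called, in each of the 14 alternative settings. The number of the 9 genes called higher was 4 to 6. Of the other pathway genes, as filtered in each setting, 20 to 34 were higher and 11 to 15 lower. The count of 20 came with an FDR of 0.01. Over all tested genes, at an FDR under 0.05, higher calls went from 2216 of 12297 without control replicate 3 to 3616 of 12330 without CD replicate 3. Lower calls in these 2 fits were 2194 and 3606. With the replicate number as a block the log2 fold change of TGFB1 was 0.59 and no longer called (FDR 0.0550, edgeR), that of TGFBR1 was -0.057, and no other of the 9 calls changed. Among the pathway genes named, the block ended the call of JUND (1.69, FDR 0.0722, edgeR). Same-numbered libraries had correlations of their deviations of -0.024, -0.33 and -0.18, so the numbers were not taken as pairs. TGFBR1 was also negative in limma-voom (-0.060). With each library left out, log2 fold changes were 0.50 to 0.69 for TGFB1, -0.43 to 0.28 for TGFBR1 and -0.092 to 0.36 for TGFBR2. TGFB3 ranged from -0.13 to 0.053, positive only without control replicate 3, and SKIL from -0.35 to 0.45, negative only without CD replicate 1. The cause of these changes was not tested. Other scalings shifted the median of all genes by at most 0.033. TGFBR1 and TGFB1, with 655 and 741 reads in all, had the largest counting error of the 9 genes.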

Other observations

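In the RefSeq annotation of the mink assembly ASM_NN_V1, which is not the assembly used for the counts and served here only for the order of genes, all 9 genes matched by symbol. SMAD3 and SMAD6 are neighbors with 0 protein-coding genes between them, and in CD their log2 fold changes were 1.07 and -0.48. SMAD2 and SMAD7 have 2 protein-coding genes between them, and their log2 fold changes were 1.10 and 0.10. SMAD4 lies on the same chromosome, 14 protein-coding genes from SMAD7. The relation of position to change was not tested.

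TGFBR3 had the lowest FDR of the 9 genes. The genes whose log2 CPM over the 6 libraries was most like that of TGFBR3 were NIPSNAP2, T11L2 and STK38L, with Pearson correlations of 0.999, 0.998 and 0.998. Their log2 fold changes were 1.04, 2.54 and 2.68. These values describe 6 libraries of 2 conditions that share the same contrast, and 98 of the other 10088 tested genes with a symbol had a correlation above 0.99 with TGFBR3.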
